A study of Homo sapiens with 6 samples.

Results

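Genes that mark hematopoietic progenitors and myeloid cells were followed through the m6A writer knockdowns in K562 cells: KIT, CD34 and CD44 on progenitors, CD33 and ITGAM on the myeloid surface, the transcription factors SPI1 and CEBPA, lysozyme (LYZ), and HCLS1 and LGALS12. These are 10 genes of the 61661 identifiers in the count table, each found by 1 Ensembl identifier. HCLS1 and LGALS12 were chosen by measured values, the fall of their counts from the shCTR to the shMETTL3 libraries, so their values are a description and carry no test; the other 8 were listed as lineage markers. K562 is an established line from the pleural effusion of a chronic myeloid leukemia in blast phase. RNA was sequenced from 3 groups of these cells, with 2 libraries each: shCTR, a lentiviral control with a nonsense sequence whose genotype the labels give as WT, shMETTL3 and shMETTL14. The stable METTL3 and control lines were made with a vector that also carries GFP and puromycin resistance, and METTL3 was targeted with 1 hairpin; the METTL14 hairpin and vector are not given in the sources used here. Nothing says that the 2 libraries of a group came from separate cultures, so p-values measure the spread between libraries, which may be technical.

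METTL3 and METTL14 form the heterodimer that writes m6A, a methyl mark on adenosines of mRNA that affects decay, splicing and translation. In normal blood formation, CD34 and KIT mark stem and progenitor cells, PU.1 (the product of SPI1) and C/EBP-alpha (from CEBPA) drive the granulocyte and monocyte program, and CD33, CD11b (from ITGAM) and lysozyme appear along it. K562 cells resemble erythroid and megakaryocytic precursors, in which PU.1 and GATA1 oppose each other.

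Library totals lay between 19292574 and 20115304 reads. The reads of METTL3 numbered 1788 and 1728 in shCTR against 1031 and 938 in shMETTL3 libraries, and those of METTL14 656 and 655 against 375 and 404 in shMETTL14 libraries, so each targeted mRNA was lowered and still present. Of the 57 granulocyte and monocyte genes on a list, 30 had at most 3 reads, the floor used here, in every library. MPO, the azurophil granule enzyme of granulocytes, had 0 or 1 read, CD14, the monocyte receptor for lipopolysaccharide, had between 1 and 3, and ITGB2, the beta chain that pairs with CD11b, between 1 and 4. These 3 were near the floor in every group, while 27 genes of the list passed it in some library, among them FCGR2A, CST3 and CYBB. The summed level of the 57 genes, LYZ and CD33 included, was 501.5 to 585.4 CPM (counts scaled to a common library size with edgeR's TMM factors) in shCTR, 494.8 to 505 in shMETTL3 and 561.7 to 571.9 in shMETTL14 libraries. All 15 erythroid markers passed the floor. Their sum was 1875 to 1946 CPM in shCTR, 2110 to 2118 in shMETTL3 and 1908 to 1934 in shMETTL14 libraries, with 6 of 15 higher and 1 lower after METTL3 knockdown, and 4 higher and 0 lower after METTL14 knockdown, by edgeR; of all tested genes 8.73% were higher and 7.73% lower in the first comparison and 3.43% and 3.26% in the second. Of 14 megakaryocytic markers 9 passed the floor in some library, and GP1BB, GP9 and PF4 were at 0 in all. The sum of the 14 was 263.7 to 283.2 CPM in shCTR, 309.1 to 345.1 in shMETTL3 and 307.8 to 318.5 in shMETTL14 libraries. Most of it came from 1 gene, NFE2, with means of 232.1, 258.1 and 279.1 CPM in the same order, so the sum mainly follows that gene. Of the 7 tested, 4 were higher and 0 lower in shMETTL3 and 2 higher and 1 lower in shMETTL14 cells. The 4 include ITGB3, at 4 and 4 reads in shCTR, 14 and 14 in shMETTL3 and 1 and 1 in shMETTL14 libraries. ITGB3 passed the low-count filter only through the shMETTL3 libraries, so its call is a description. The sum of 19 lymphoid markers was 16.75 to 17.97 CPM in shCTR, 20.23 to 20.97 in shMETTL3 and 18.82 to 19.03 in shMETTL14 libraries. That of 13 markers of non-hematopoietic cells was 124.7 to 130.2, 107.5 to 112.6 and 138.7 to 144.7 CPM in the same order. Most of this sum came from EPCAM and KRT19, which had unlike patterns. EPCAM had means of 54.6, 36.8 and 41.3 CPM, highest in shCTR, and KRT19 of 69.4, 66.2 and 95.9, highest in shMETTL14 libraries. The part of these other cell programs in the values that follow was not tested. In bulk RNA, fewer cells of a type and less RNA per cell cannot be told apart.

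RefSeq promoters (GRCh38.p14, from 250 bases before the start to 50 after it) were found for 7 of the 10 genes; SPI1, LYZ and LGALS12 had no entry. The promoters of HCLS1, CD33 and KIT are shown because, of the 7, these are the genes whose shCTR libraries lay wholly above (HCLS1 and KIT) or wholly below (CD33) both knockdowns. Capitals mark AGGAAG on either strand, the core that PU.1 and other ETS factors bind.
HCLS1 at chr3:121660854-121661153, minus strand: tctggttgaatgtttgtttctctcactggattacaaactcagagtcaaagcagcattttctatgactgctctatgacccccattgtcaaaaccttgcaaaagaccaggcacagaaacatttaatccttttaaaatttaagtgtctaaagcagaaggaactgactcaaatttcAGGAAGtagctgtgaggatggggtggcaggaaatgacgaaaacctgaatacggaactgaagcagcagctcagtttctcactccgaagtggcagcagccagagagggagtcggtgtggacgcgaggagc
CD33 at chr19:51224830-51225129, plus strand: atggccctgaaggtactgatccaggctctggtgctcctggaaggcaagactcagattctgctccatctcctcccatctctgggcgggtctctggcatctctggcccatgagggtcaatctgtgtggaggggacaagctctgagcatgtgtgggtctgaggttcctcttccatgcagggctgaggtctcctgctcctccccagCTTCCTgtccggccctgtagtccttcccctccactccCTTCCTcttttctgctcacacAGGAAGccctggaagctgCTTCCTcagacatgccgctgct
KIT at chr4:54657707-54658006, plus strand: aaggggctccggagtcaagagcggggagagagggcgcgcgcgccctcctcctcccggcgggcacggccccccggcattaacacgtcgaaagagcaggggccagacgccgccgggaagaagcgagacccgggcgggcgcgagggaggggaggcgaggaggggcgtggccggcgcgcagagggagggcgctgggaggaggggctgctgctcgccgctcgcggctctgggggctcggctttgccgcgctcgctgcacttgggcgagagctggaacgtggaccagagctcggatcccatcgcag
AGGAAG stood 4 times in the CD33 promoter, 4 times in that of ITGAM and 1 time in that of HCLS1. It was not found in the windows of KIT, CD34, CD44 and CEBPA. Of all 35116 promoters, 33.6% held it. The GATA motif AGATAA, found in 10.3% of all promoters, was in none of the 7 windows. TTGCNNAA, a C/EBP motif found in 10.5%, was in that of HCLS1 alone, apart from AGGAAG. These letters describe the windows and are not evidence of binding. The KIT promoter was GC-rich, at 74.3% G and C, and that of HCLS1 was at 45.3%, against a median of 58.7% over all promoters.

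Levels between genes were compared per kilobase of the longest protein-coding GENCODE transcript. In shCTR libraries the order was LYZ, CD33, SPI1, KIT, LGALS12, HCLS1, CEBPA, ITGAM, CD44 and CD34. LYZ led with 27.5 and 28.7 CPM per kb. CD33, at 11.7 and 13.4, overlapped with SPI1, at 8.69 and 12.7, and no other neighbours overlapped. The range was wide: CD44 stood at 0.0618 and 0.0638 CPM per kb, and CD34 at 0. In shMETTL3 libraries CD33, at 14.8 and 15.6 CPM per kb, stood above LYZ, at 10.1 and 10.8. In shMETTL14 libraries LYZ led again, at 39.2 and 42.4 CPM per kb. Among all tested genes with a known length, the mean level of LYZ over the 6 libraries had a percentile of 82.6, that of CD33 of 72.9, that of SPI1 of 58.2 and that of KIT of 28.8; CEBPA, ITGAM and CD44 lay below 5.

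**Figure D1:**
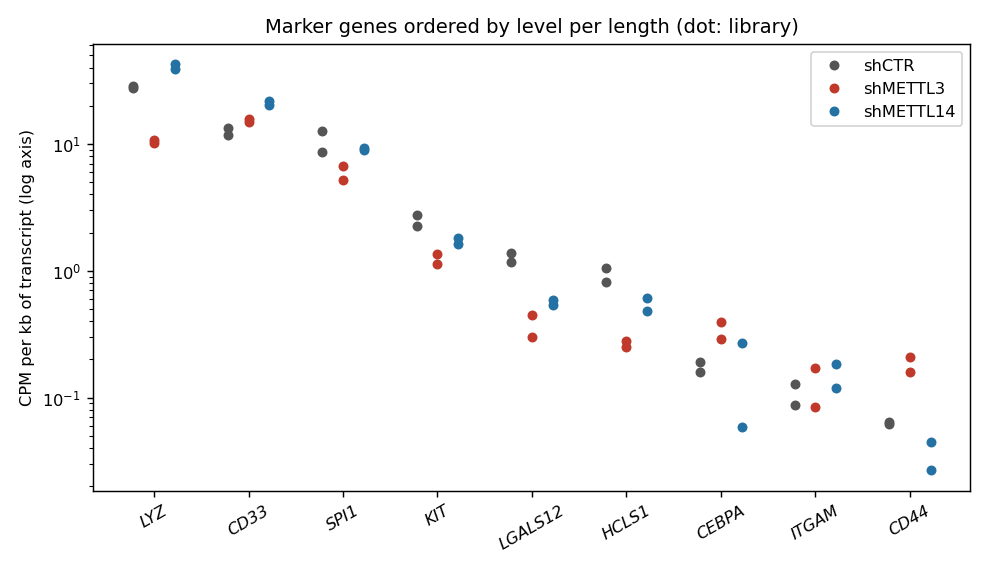
CPM per kb of transcript (log axis) of the marker genes, with each dot 1 library and colors for the 3 groups; CD34, at 0 in both shCTR libraries, is not drawn. LYZ, CD33 and SPI1 lie above 5 CPM per kb in every library, and CEBPA, ITGAM and CD44 below 0.4.

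Of the 8 genes not chosen for their fall, 7 passed the filter on low counts, and CD34 was too low to test. CD44 had more than 10 reads in the shMETTL3 libraries alone. CEBPA had more than 10 in these libraries and in shMETTL14-1, and at most 10 in the others. Both passed through the group in which they were high and are described without a test. This left KIT, CD33, ITGAM, SPI1 and LYZ. In shMETTL3 against shCTR cells 3 of these, KIT, SPI1 and LYZ, passed the threshold, all lower. The threshold was an adjusted p under 0.05 in edgeR's quasi-likelihood test. Of all 17686 tested genes 16.5% passed it, 8.73% higher and 7.73% lower. In shMETTL14 against shCTR cells 3 of the same genes did, with KIT lower and CD33 and LYZ higher. The share of all genes was 6.69%, with 3.43% higher and 3.26% lower. Between shMETTL3 and shMETTL14 cells 3 of them differed, CD33, SPI1 and LYZ, all lower in shMETTL3. The share of all genes was 12.1%, with 6.65% higher and 5.49% lower. Both comparisons with shCTR share those 2 libraries, and the genes were chosen with earlier results known, so these counts describe the list. Among all genes, 1544 were higher and 1368 lower in shMETTL3 than in shCTR cells, and 2158 and 858 with scaling by library size alone. The same scaling gave 743 higher and 443 lower in shMETTL14 cells, in place of 607 and 577, and 1399 and 754 between the knockdowns, in place of 1177 and 971.

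**Figure D2:**
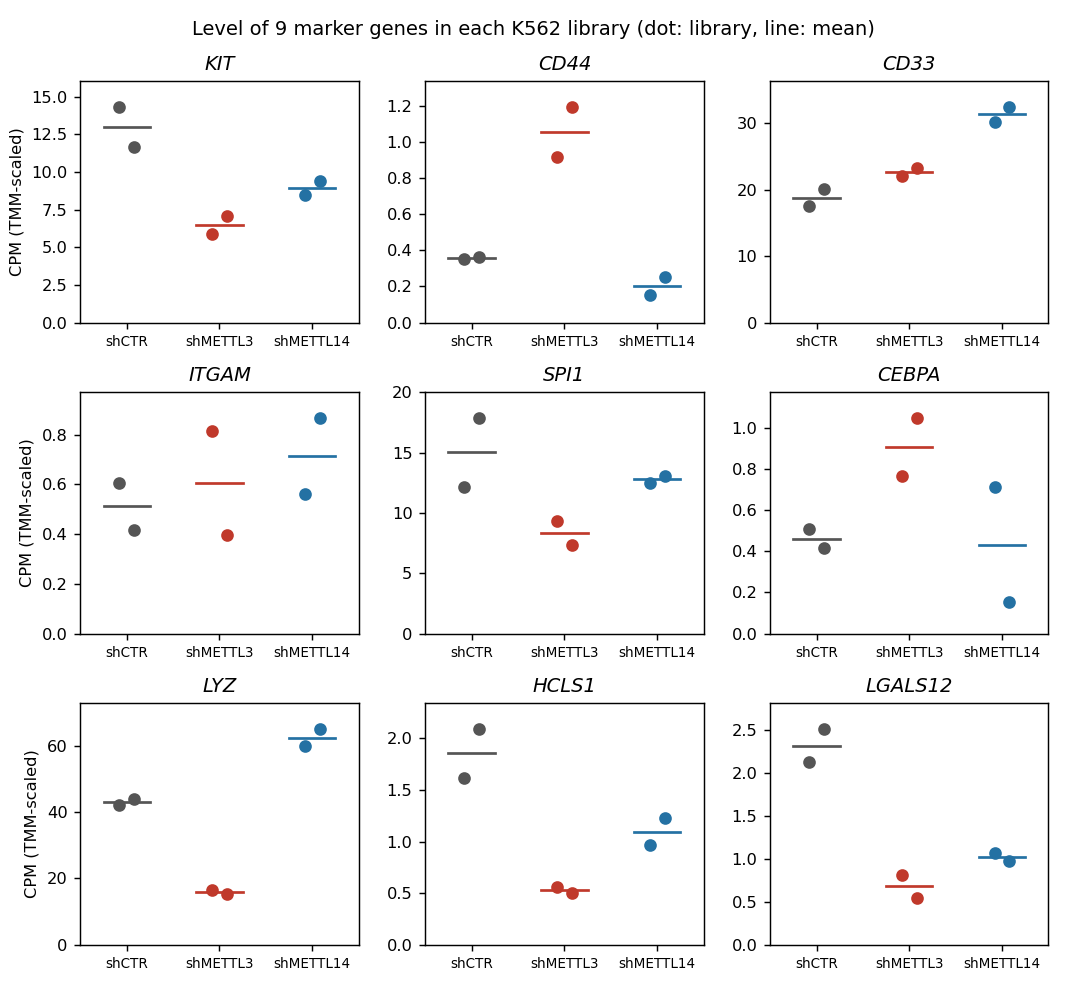
Level in CPM, scaled with TMM factors, of the 9 genes that passed the filter in each of the 6 libraries (dots), with the mean of each group as a line. LYZ is lowest in the 2 shMETTL3 libraries and highest in the 2 shMETTL14 libraries, and KIT, HCLS1 and LGALS12 are highest in the 2 shCTR libraries.

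Lysozyme, the secreted enzyme that cleaves bacterial cell walls and is stored in myeloid granules, went in opposite directions in the 2 knockdowns. LYZ (ENSG00000090382, chromosome 12, 69348341 to 69354234, plus strand) had 830 and 840 reads in shCTR, 324 and 310 in shMETTL3 and 1177 and 1273 in shMETTL14 libraries. No library of one group overlapped with another group. Its level of 42.9 ± 1.33 CPM (SD, n = 2) in shCTR cells compared with 16.0 ± 0.739 after METTL3 and 62.4 ± 3.56 after METTL14 knockdown. LYZ was at 37.2% of the shCTR level in shMETTL3 cells (log2 fold change -1.43, standard error 0.0861, adjusted p = 1.39e-09 by edgeR). In shMETTL14 cells it was 1.45-fold higher (log2 fold change 0.54, standard error 0.0753, adjusted p = 1.19e-04 by edgeR). Against shMETTL14 the shMETTL3 level fell by 1.97 on the log2 scale (standard error 0.0840, adjusted p = 6.07e-12 by edgeR). GENCODE places an antisense gene over 599 of its exonic bases, listed at 0 reads in every library; whether the counting used strand is not given in the sources used here.

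KIT, the receptor tyrosine kinase for stem cell factor, fell in both knockdowns. KIT (ENSG00000157404, chromosome 4, 54657918 to 54740715, plus strand) had 283 and 223 reads in shCTR, 115 and 142 in shMETTL3 and 167 and 184 in shMETTL14 libraries, and both shCTR libraries were above all 4 others. The level of 12.98 ± 1.89 CPM in shCTR cells became 6.47 ± 0.864 in shMETTL3 and 8.94 ± 0.627 in shMETTL14 cells (SD, n = 2 each). The level in shMETTL3 cells was 49.8% of that in shCTR cells (standard error 0.147 on the log2 scale, adjusted p = 1.04e-04 by edgeR). In shMETTL14 cells it was 68.8% (log2 fold change -0.54, standard error 0.142, adjusted p = 0.0253 by edgeR). This second call was lost without shCTR-1 (-0.38, adjusted p = 0.215), without shMETTL14-1 (-0.47, adjusted p = 0.272), without shMETTL14-2 (-0.61, adjusted p = 0.0969), with DESeq2 (adjusted p = 0.0862) and without the filter (adjusted p = 0.0582). Between the knockdowns KIT differed by -0.47 (95% interval -0.79 to -0.15, adjusted p = 0.0530 by edgeR), and this value passed the threshold in 5 of 13 alternatives, with an adjusted p as low as 0.0295. KITLG, the KIT ligand, had 0 reads in all libraries.

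CD34, the sialomucin of stem and progenitor cells, had 1 read in shMETTL3-1, 1 in shMETTL14-2 and 0 in the other 4 libraries. This is below the floor of 3 reads, which is 0.150 to 0.157 CPM here, and no fold is given. CD44, the hyaluronan receptor, was near that floor as well, with 7 and 7 reads in shCTR, 18 and 24 in shMETTL3 and 3 and 5 in shMETTL14 libraries. The 2 shMETTL3 libraries were above the rest. The log2 difference, shMETTL3 minus shCTR, was 1.54 (95% interval 0.572 to 2.504) and ranged from 1.34 to 1.72 with 1 library left out. Between shMETTL3 and shMETTL14 cells it was 2.34 (95% interval 1.26 to 3.42). Both are descriptions, since CD44 passed the filter through its high group. In shMETTL14 against shCTR cells the value was -0.80 (95% interval -2.13 to 0.53).

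CD33, the sialic acid-binding Siglec-3 of myeloid cells, was highest after METTL14 knockdown. It had 345 and 384 reads in shCTR, 434 and 468 in shMETTL3 and 594 and 636 in shMETTL14 libraries, and the 3 groups did not overlap. The gene (ENSG00000105383) lies on the plus strand of chromosome 19 from 51225064 to 51243860. From 18.8 ± 1.84 CPM in shCTR cells it rose to 31.3 ± 1.56 in shMETTL14 cells (SD, n = 2 each), 1.67-fold (log2 fold change 0.74, standard error 0.0962, adjusted p = 5.22e-05 by edgeR). In shMETTL3 cells it was at 22.7 ± 0.870 CPM, a log2 fold change of 0.28 that was not past the threshold (95% interval 0.07 to 0.48, adjusted p = 0.0620 by edgeR) but was past it in 4 of 13 alternatives. One of these was the fit without shCTR-2 (0.38, adjusted p = 0.0194). Between the knockdowns, shMETTL3 minus shMETTL14, CD33 differed by -0.46 on the log2 scale (standard error 0.0940, adjusted p = 0.00223 by edgeR), and without shMETTL14-2 this was not past the threshold (-0.41, adjusted p = 0.0650). None of the 4 other Siglec genes tested passed the threshold in the 3 comparisons, by edgeR.
ITGAM, which codes for CD11b, the alpha chain of the complement receptor CR3, had between 8 and 17 reads in every library. Its groups overlapped in all comparisons. The log2 fold change was 0.23 in shMETTL3 (95% interval -0.82 to 1.29) and 0.47 in shMETTL14 cells (95% interval -0.56 to 1.49). Neither was past the threshold (adjusted p = 0.803 and 0.644 by edgeR). The counts are compatible with any change within these unadjusted bounds, in either direction. ITGAM and CD33 have paralogs, and how reads shared among them were counted is not given in the sources used here.

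**Figure D3:**
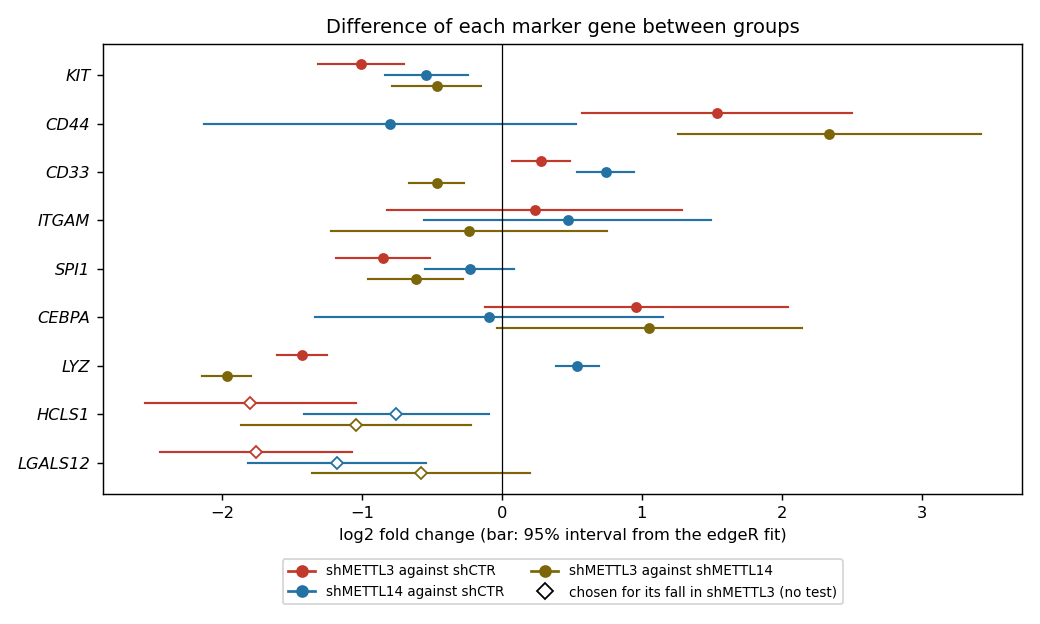
Log2 fold change of each gene in the 3 comparisons, with its 95% interval from the edgeR fit, unadjusted, as a bar. Open diamonds mark HCLS1 and LGALS12, which were chosen for their fall. CD44 and CEBPA are drawn filled but carry no test either, since they passed the low-count filter through their high group. LYZ lies on opposite sides of 0 in the 2 knockdowns, and KIT lies below 0 in both.

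SPI1, which codes for the ETS factor PU.1, fell after METTL3 knockdown. Its gene (ENSG00000066336) spans 47354860 to 47378576 on the minus strand of chromosome 11. The counts were 241 and 342 in shCTR, 184 and 147 in shMETTL3 and 246 and 256 in shMETTL14 libraries. Both shMETTL3 libraries were below the other 4, and the 2 shCTR libraries lay on either side of the shMETTL14 libraries. SPI1 was at 15.0 ± 4.01 CPM in shCTR and 8.35 ± 1.44 in shMETTL3 cells (SD, n = 2 each), 55.6% of the shCTR level (log2 fold change -0.85, standard error 0.160, adjusted p = 0.00117 by edgeR). The value kept its side of the threshold in all 13 alternatives and ranged from -1.10 to -0.55 with 1 library left out. In shMETTL14 cells it was at 12.8 ± 0.381 CPM, a log2 fold change of -0.23 (95% interval -0.55 to 0.09, adjusted p = 0.420 by edgeR). Between the knockdowns the difference was -0.62 (standard error 0.163, adjusted p = 0.0158 by edgeR). It was not past the threshold without shMETTL3-2 (-0.45, adjusted p = 0.224), without shMETTL14-1 (-0.65, adjusted p = 0.0891) or without shMETTL14-2 (-0.58, adjusted p = 0.123).

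CEBPA, the master factor of granulocyte commitment, had 10 and 8 reads in shCTR, 15 and 21 in shMETTL3 and 14 and 3 in shMETTL14 libraries. The shMETTL3 libraries were the highest, and the 2 shMETTL14 libraries enclosed both controls. The log2 fold change was 0.96 in shMETTL3 (95% interval -0.12 to 2.04) and -0.09 in shMETTL14 cells (95% interval -1.34 to 1.15). Both are descriptions, since CEBPA passed the low-count filter through the shMETTL3 libraries, its high group. Its relatives were better covered. CEBPB, the C/EBP of monocytes and of stress responses, had 1592 and 1661 reads in shCTR, 1946 and 2146 in shMETTL3 and 1639 and 1553 in shMETTL14 libraries, and rose in shMETTL3 cells (log2 fold change 0.30, adjusted p = 0.00508 by edgeR). CEBPD rose in both knockdowns, by 0.40 and 0.42 on the log2 scale (adjusted p = 0.0113 and 0.0176 by edgeR). CEBPG, which dimerizes with other C/EBP proteins, had log2 fold changes of 0.10 and -0.11 (adjusted p = 0.307 and 0.308 by edgeR), and CEBPE, the factor of late granulocytes, had 0 reads in 5 libraries and 1 in shMETTL14-2. Of the 12 myeloid transcription factors tested other than SPI1 and CEBPA, 3 were higher and 0 lower after METTL3 knockdown, 25% against 16.5% of all tested genes. After METTL14 knockdown 1 was higher and 0 lower, 8.33% against 6.69%. The median log2 fold changes were 0.24 and 0.05, against 0.00 over all genes in both. The third in shMETTL3 cells was VDR, the vitamin D receptor (log2 fold change 0.65, adjusted p = 0.00321 by edgeR).

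HCLS1, or HS1, an actin-binding adaptor of blood cells and relative of cortactin, had 32 and 40 reads in shCTR, 11 and 10 in shMETTL3 and 19 and 24 in shMETTL14 libraries. The gene (ENSG00000180353) spans 121631399 to 121660927 on the minus strand of chromosome 3. The log2 fold change was -1.80 (standard error 0.361) in shMETTL3 and -0.75 (standard error 0.317) in shMETTL14 cells. LGALS12, a tandem-repeat galectin found in fat and myeloid cells, had 42 and 48 reads in shCTR, 16 and 11 in shMETTL3 and 21 and 19 in shMETTL14 libraries. It lies on the plus strand of chromosome 11 from 63506084 to 63516774 (ENSG00000133317). The log2 fold change was -1.76 (standard error 0.327) in shMETTL3 and -1.18 (standard error 0.304) in shMETTL14 cells. For both genes the 3 groups did not overlap, with shCTR highest and shMETTL3 lowest. The shMETTL3 counts chose these 2 genes and the shCTR libraries are shared, so no p-value is given for either.
The cortactin gene CTTN, with 5600 to 5948 reads per library, had log2 fold changes of -0.05 and 0.01, and HAX1, which binds HCLS1 and protects neutrophil precursors from death, had 0.07 and -0.02; none of these 4 values passed the threshold by edgeR. Of 22 tested partner genes of HCLS1 other than HCLS1 itself, 0 were higher and 4 lower in shMETTL3 cells, 18.2% against 16.5% of all tested genes and thus near the background, among them LYN, a Src-family kinase (log2 fold change -0.31, adjusted p = 0.00321), and LEF1, a Wnt pathway factor (-0.27, adjusted p = 0.0248 by edgeR). In shMETTL14 cells 1 was higher, ARPC1B of the actin-nucleating Arp2/3 complex (0.22, adjusted p = 0.0396), and 1 lower, LEF1 (-0.35, adjusted p = 0.00936 by edgeR). Among the other galectins, LGALS3 rose in shMETTL14 cells, from 451 and 404 reads to 591 and 680 (log2 fold change 0.56, adjusted p = 8.21e-04 by edgeR), and was at -0.09 in shMETTL3 cells (adjusted p = 0.580). LGALS1, LGALS8 and LGALS9 did not pass the threshold in either knockdown, with log2 fold changes between -0.10 and 0.30. LGALS3BP, a secreted galectin-3 ligand, rose in shMETTL3 cells by 1.07 on the log2 scale (adjusted p = 9.53e-04 by edgeR).

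The wider lists place these genes among others of their function. Among 19 tested stem and progenitor genes other than the members, 3 rose and 4 fell after METTL3 knockdown, as did 2 and 4 after METTL14 knockdown, with medians of 0.00 and 0.03. In all, 36.8% and 31.6% of this list passed the threshold, against 16.5% and 6.69% of all tested genes, with which the counts of the other lists are to be read too. MEIS1, a homeobox cofactor of stem cells, went from 195 and 178 reads to 101 and 119 in shMETTL3 libraries (log2 fold change -0.79, adjusted p = 9.85e-04 by edgeR). RUNX1, the core-binding factor of definitive blood formation, was lower in both knockdowns, by -0.33 and -0.37 on the log2 scale (adjusted p = 0.00181 and 0.00158 by edgeR). HLF, a leucine zipper factor of stem cells, was 1.02 higher on the log2 scale in shMETTL3 cells on 16 to 48 reads (adjusted p = 0.0326 by edgeR). PROCR, the endothelial protein C receptor, rose in both, by 0.41 and 0.69 (adjusted p = 0.00639 and 1.22e-04 by edgeR). LYL1, a relative of TAL1, rose in shMETTL3 cells by 0.30 (adjusted p = 0.0108 by edgeR). ANGPT1, a ligand of the TIE2 receptor, fell in shMETTL14 cells by 0.73 on the log2 scale (adjusted p = 4.54e-06 by edgeR). There CD47, the signal against phagocytosis, fell by 0.44 (adjusted p = 1.28e-04) and HHEX, a homeobox factor, rose by 0.28 (adjusted p = 0.0123 by edgeR).
Of 23 tested KIT signaling genes other than KIT, 4 rose and 5 fell in shMETTL3 cells, and 1 rose and 0 fell in shMETTL14 cells. The falls included VAV1, a guanine exchange factor of blood cells (-1.003, adjusted p = 9.78e-04), and MITF, a factor downstream of KIT in mast cells (-0.63, adjusted p = 4.39e-05 by edgeR). SH2B2, an adaptor of receptor kinases, rose by 1.42 in shMETTL3 cells on 12 to 39 reads (adjusted p = 0.0271 by edgeR). PLCG2, a phospholipase, and SOCS1, a cytokine signal inhibitor, rose in shMETTL3 cells by 0.65 and 0.59 (adjusted p = 3.18e-04 and 0.00234 by edgeR), and SOCS1 rose by 0.93 in shMETTL14 cells (adjusted p = 4.30e-05). Of 13 tested granulocyte and monocyte genes other than LYZ, CD33 and ITGAM, 1 rose and 0 fell in shMETTL3 cells, and 1 rose and 1 fell in shMETTL14 cells. The latter were CST3, a cysteine protease inhibitor, at 0.36 (adjusted p = 0.00856), and FCGR2A, an immunoglobulin receptor, at -0.28 (adjusted p = 0.0218 by edgeR). The median of these 13 genes was 0.00 in shMETTL3 and -0.09 in shMETTL14 cells. Among 14 CD44 partners 2 rose and 1 fell in shMETTL3 cells, among them HYAL3, a hyaluronidase (0.49, adjusted p = 0.0360), and EZR, which links CD44 to actin (-0.24, adjusted p = 0.0115 by edgeR). In shMETTL14 cells 1 rose and 1 fell, LYVE1, another hyaluronan receptor, at 1.52 (adjusted p = 0.00583), and SRGN, the serglycin proteoglycan, at -0.94 (adjusted p = 0.0233 by edgeR).
Of 6 leukocyte integrin genes other than ITGAM, FERMT3, the kindlin-3 that activates integrins in blood cells, rose in both knockdowns, by 0.47 and 0.36 (adjusted p = 6.57e-05 and 0.00188 by edgeR), and TLN1, the talin that links integrins to actin, fell in shMETTL3 cells by 0.26 (adjusted p = 0.00423).
Set directly against each other, shMETTL3 minus shMETTL14, the knockdowns differed for 8 of the 19 stem and progenitor genes, 4 in each direction. Of all tested genes 12.1% differed, 6.65% higher and 5.49% lower, with which the counts that follow are to be read too. Among the 8 were HLF (1.31, adjusted p = 0.0114), ANGPT1 (0.77, adjusted p = 8.37e-07) and MEIS1 (-0.59, adjusted p = 0.0118 by edgeR). Of the 12 myeloid transcription factors 3 were higher in shMETTL3 cells, VDR (0.59, adjusted p = 0.00661), CEBPB (0.34, adjusted p = 0.00213) and CEBPG (0.21, adjusted p = 0.0288), and 1 was lower, the germinal center repressor BCL6 (-0.71, adjusted p = 0.0138 by edgeR). Of the 13 granulocyte and monocyte genes 1 was higher, ANPEP, the aminopeptidase CD13 (0.79, adjusted p = 0.0279), and 2 lower, among them CYBB, the catalytic chain of the phagocyte oxidase (-0.46, adjusted p = 0.0183 by edgeR). Of the 23 KIT signaling genes 3 were higher, among them PLCG2 (0.91, adjusted p = 8.74e-06), and 3 lower, MITF (-0.36, adjusted p = 0.00744), VAV1 (-0.61, adjusted p = 0.0415) and LYN (-0.31, adjusted p = 0.00393 by edgeR).

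**Figure D4:**
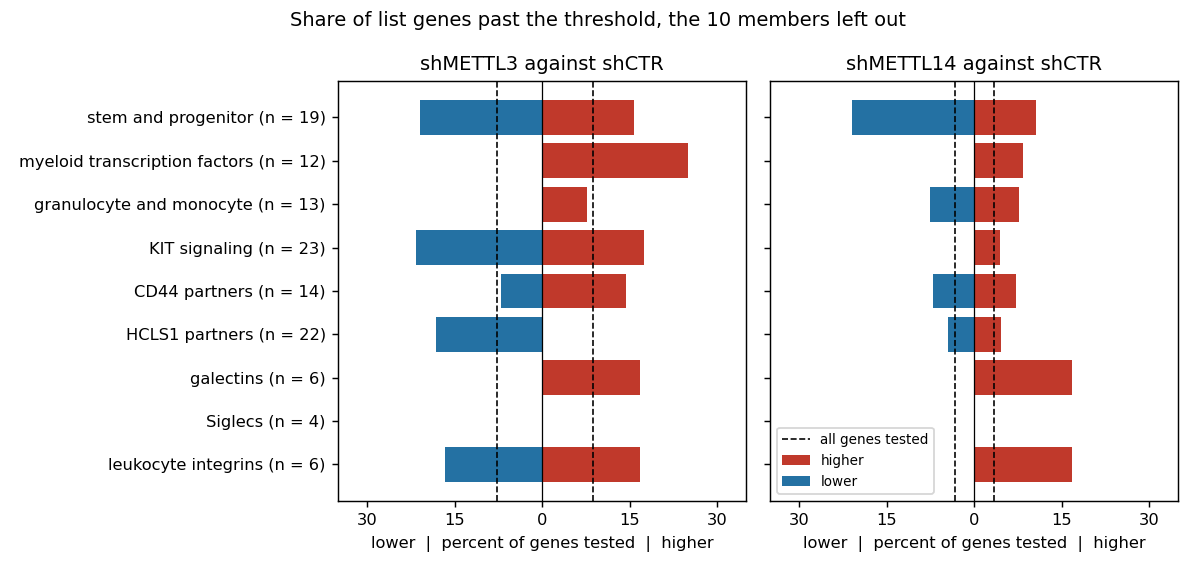
Percent of the tested genes of each list, the 10 members left out, called higher (right) or lower (left) against shCTR at the 0.05 threshold of edgeR's adjusted p, with dashed lines at the share over all genes tested. For stem and progenitor genes the shares lower (4 of 19 in each knockdown) and higher (3 and 2 of 19) are both past the dashed lines. Several short lists have an empty side. In shMETTL3 cells 0 of 22 HCLS1 partners were higher, and 0 of 12 myeloid transcription factors were lower.

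The genes with the most similar pattern over the 6 libraries were found by the distance between log2 CPM values centred on each gene's mean. MS4A3, a membrane protein of granulocyte progenitors, was the nearest of all to LGALS12 (distance 0.377) and the third nearest to HCLS1 (distance 0.477). Nearer to HCLS1 were Novel00818, an identifier outside the annotation (distance 0.416), and EN1 (distance 0.465). EN1 was also the third nearest to LGALS12 (distance 0.521). MS4A3 had 1050 and 1004 reads in shCTR, 382 and 355 in shMETTL3 and 541 and 548 in shMETTL14 libraries. UBASH3A, a regulator of T cell receptor signaling, was nearest to LYZ (distance 0.448), with 635 and 630, 178 and 206, and 960 and 860 reads in the same order of groups. PCED1B was nearest to CD33 (distance 0.122) and GBP5, an interferon-induced GTPase, to KIT (distance 0.241). A distance over 6 libraries in 3 groups is small for any gene with like group means, and it says nothing of shared control.

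The letters GGACT, the DNA form of a core at which METTL3 and METTL14 often methylate, were counted on the sense strand of each gene's longest protein-coding transcript. LYZ held 0 in 1530 nt, as did 14.6% of the tested genes with a transcript. SPI1 held 3 in 1403 nt and HCLS1 4 in 2000 nt, or 2.14 and 2.00 per kb, against a median of 0.911 per kb. KIT held 3 in 5186 nt (0.578 per kb) and CD33 1 in 1494 nt (0.669 per kb). These counts are no measure of methylation.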

How the data were processed

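As deposited by the authors, the data are raw read counts in 1 table for 60675 Ensembl identifiers and 986 of their own; the latter held 0.635% to 0.703% of reads. mRNA was enriched with oligo(dT) beads and sequenced on HiSeq. The submitters' processing notes name HTSeq 0.6.1 and hg38; aligner, annotation and strand setting are not given in the sources used here. Identifiers were matched to symbols through a gene name table (56558) and GENCODE release 29 (438 more).
The analysis used edgeR 4.0.16 under R 4.3.3. Its filterByExpr (minimum count 10) kept 17686 genes, TMM factors were computed (0.980 to 1.02), and the quasi-likelihood test was fitted to all 6 libraries without a block, with Benjamini-Hochberg adjustment over all tested genes and a threshold of 0.05. Standard errors are the log2 fold change over the root of the F statistic. The steps were tested on simulated data. An exact permutation of 2 against 2 libraries gives no p under 0.333, so none was used. Counts carry no molecular identifiers, so intervals and floors cover counting error and library spread only. Replicates differed by more than sampling noise (mean chi-square per gene 5.34 in shCTR, 3.05 in shMETTL3 and 2.56 in shMETTL14).
Members and lists were chosen with earlier results of these data known. Named from the lists were, per comparison, the 3 genes called with the greatest rise and the 3 with the greatest fall, if they had 10 reads or more in every library compared and groups that did not overlap, plus direct relatives of the members; not all such genes are described. Alternatives were DESeq2 1.42.0, its size factors, library size alone, no filter, compared groups only, a replicate block, removal of a GC and length trend (mgcv 1.9.3) and each library left out.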

Additional observations from a re-analysis of the deposited data

Results flagged for a closer look

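The effects of the 2 knockdowns, each against the same shCTR libraries, differed for LYZ, SPI1 and CD33, by edgeR's test of shMETTL3 against shMETTL14. KIT and ITGAM were not past the threshold, and 12.1% of all tested genes were. For LYZ the log2 difference, shMETTL3 minus shMETTL14, was -1.97, with opposite signs against shCTR and all 13 alternatives past the threshold (from -2.03 to -1.90). For SPI1 it was -0.62, lost without shMETTL3-2 (-0.45), shMETTL14-1 (-0.65) or shMETTL14-2 (-0.58), and for CD33 -0.46, lost without shMETTL14-2 (-0.41). For CD44 it was 2.34, on 3 to 24 reads per library. This value is no test, because CD44 passed the low-count filter only through the shMETTL3 libraries. It was 2.14 without shMETTL3-2 and 2.02 without shMETTL14-1. Groups of 2 libraries are too small for a search for outlying libraries.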

How the results depend on the processing

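CEBPA is described without a test, so its side of the threshold carries no weight. In the 3 comparisons 12, 9 and 12 of its values are among the 202 that kept theirs. It is counted here with KIT, CD33, ITGAM, SPI1 and LYZ. Of their values under the alternatives, 202 kept their direction and side of the threshold, 9 became past it, 9 lost it and 7 changed sign. Of those for HCLS1 and LGALS12, which have no test, 74 moved by less than the spread between replicates and 4 by more. All 7 changes of sign came from leaving out 1 library and concern values that were not past the threshold: with each library left out in turn, ITGAM ranged from -0.36 to 0.66 in shMETTL3 against shCTR (-0.01 without shCTR-2) and from -0.83 to 0.19 in shMETTL3 against shMETTL14 (0.19 without shMETTL3-2 and 0.11 without shMETTL14-2), CEBPA from -1.56 to 0.62 in shMETTL14 against shCTR (0.05 without shCTR-1), and SPI1 from -0.48 to 0.067 in the same comparison (the latter without shCTR-2). LGALS12 ranged from -2.07 to -1.50 in shMETTL3 against shCTR. With CD44 counted, though it carries no test, 4, 3 and 4 members passed the threshold in the 3 comparisons of the main fit. Under the alternatives other than leaving 1 library out, these counts were 3 to 5, 2 to 3 and 3 to 5. The same alternatives called 1881 to 3541, 763 to 1699 and 1327 to 3120 of all genes. Since CD44 is among the members counted, these ranges describe the list and are no measure of stability.
Over all genes, DESeq2 called 1881, 763 and 1327 in the 3 comparisons, in place of 2912, 1184 and 2148. Without the filter 766 genes were called in shMETTL14 against shCTR. With 1 library left out the counts ranged from 1102 to 3569, from 341 to 1913 and from 942 to 2953; there the group with 1 library is assumed to vary like the others. Replicate numbers are shared across groups in the labels, but the deviations of same-numbered libraries correlated by 0.06, 0.01 and -0.02 (across genes). What a shared number stands for is not given, and a shared effect on some genes was not tested. With the replicate number as a block, 5, 3 and 5 members and 3264, 1459 and 2478 genes were past the threshold. Each 5 includes CD44, which carries no test. CD33 in shMETTL3 against shCTR (adjusted p = 0.0459) and KIT between the knockdowns (adjusted p = 0.0441) then passed by edgeR. Low counts limit what can be said of CD34, CD44, CEBPA and ITGAM. HCLS1 and LGALS12 were low as well in the shMETTL3 libraries, at 11 and 10 and at 16 and 11 reads.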
